A study of Bos taurus with 18 samples.

Results

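The genes described here encode the nuclear receptors for progesterone, oestrogens and corticosteroids, a pair of membrane-associated progesterone receptor components, and the enzymes that switch cortisol on and off. The 9 genes were given as a list (PGR, PGRMC1, PGRMC2, NR3C1, NR3C2, ESR1, ESR2, HSD11B1 and HSD11B2), and all 9 are rows of the deposited table of 21668 bovine genes. The list was chosen by the measured levels of PGR in metaphase II (MII) oocytes and 8-cell embryos, and by the lower level of HSD11B2 in 4-cell embryos than in oocytes. Values of PGR in oocytes, 4-cell and 8-cell embryos and of HSD11B2 in oocytes and 4-cell embryos are therefore given as a description, with no test.

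Steroid hormones cross the cell membrane and bind receptors that are held by heat-shock protein chaperones; the bound receptors act in the nucleus as transcription factors. The progesterone receptor PGR and the oestrogen receptors ESR1 and ESR2 serve ovarian and uterine hormones, whereas the glucocorticoid receptor NR3C1 and the mineralocorticoid receptor NR3C2 both bind cortisol. In the ovary, cumulus cells around the oocyte produce progesterone during maturation. HSD11B2 oxidises cortisol to inactive cortisone, and HSD11B1 mainly carries out the reverse reaction.

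RNA was sequenced from 18 libraries, 3 for each of 6 stages, and every library was made from a pool of 10 oocytes or embryos. Germinal vesicle (GV) oocytes are immature and MII oocytes are ready for fertilisation; both were denuded German Simmental oocytes from abattoir ovaries. MII oocytes had been matured inside their cumulus for 20 to 24 h in medium with 10% estrous cow serum, FSH and LH. Embryos with 4, 8 or 16 cells and blastocysts came from German Simmental oocytes fertilised in vitro with sperm of a Brahman (Zebu) bull, and were grown in synthetic oviduct fluid with 5% estrous cow serum. Serum was thus present in the media of matured oocytes and of all embryos, its steroid content is not stated, and no stage was treated with a steroid or an inhibitor. Breed differs as well as stage wherever embryos are set against oocytes, and the parts of stage and breed cannot be told apart there.

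Reads assigned to genes totalled 2438473 to 11971840 per library, and 11970 to 15399 genes had reads. The values below are scaled counts, that is, reads divided by the size factor of the library; 1 read was worth 0.563 to 2.82 scaled counts. Differences are in the deposited values, a variance-stabilised log2 scale that understates the change of genes with few reads. They were tested with limma and called a rise or a fall at a Benjamini-Hochberg adjusted p under 0.05 over 17138 genes. Levels were not scaled by transcript length, so they are compared between stages and not between genes. In pools of whole embryos, fewer cells with a transcript and less of it per cell cannot be told apart. The 8-cell libraries ranked genes less alike (Spearman rho 0.858 to 0.909 across genes) than the libraries of oocytes, 4-cell embryos and blastocysts (0.931 to 0.954), as did the 16-cell libraries (0.854 to 0.881). Replicate 2 of the 8-cell embryos had 12393 genes with reads, the fewest of its stage, and replicate 1 of the 16-cell embryos had 11970.

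Counts of the members leave out PGR and HSD11B2 wherever the list was chosen on a stage compared, and ESR1 for its few reads. Between MII and GV oocytes, 0 of 6 eligible members passed the limma test, where 0.712% of all genes did. The same held between 4-cell embryos and MII oocytes (0 of 6, against 0.794% of all genes), between 4-cell embryos and GV oocytes (0 of 6, against 3.1%), and between 8-cell and 4-cell embryos (0 of 6, against 12.8%). In these comparisons 0 of 6 members also had an unadjusted p under 0.05, and 0 passed with voom on the recovered reads. Between 16-cell and 8-cell embryos 2 of 7 eligible members changed, NR3C2 and PGRMC1, both downwards, where 31.1% of all genes changed. Between blastocysts and 16-cell embryos 3 of 8 changed, with PGRMC1 higher and NR3C2 and PGR lower, where 31.3% of all genes changed. Between blastocysts and GV oocytes 2 of 6 changed, PGRMC2 upwards and NR3C2 downwards, where 45.9% of all genes changed. Over all stages together, 4 of 6 members differed in the moderated F test, where 67.0% of all genes did. These shares are near or below those of all genes. Without 8-cell replicate 2 and 16-cell replicate 1 the counts for the embryo steps were 0, 2 and 3, as with them.

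**Figure D1:**
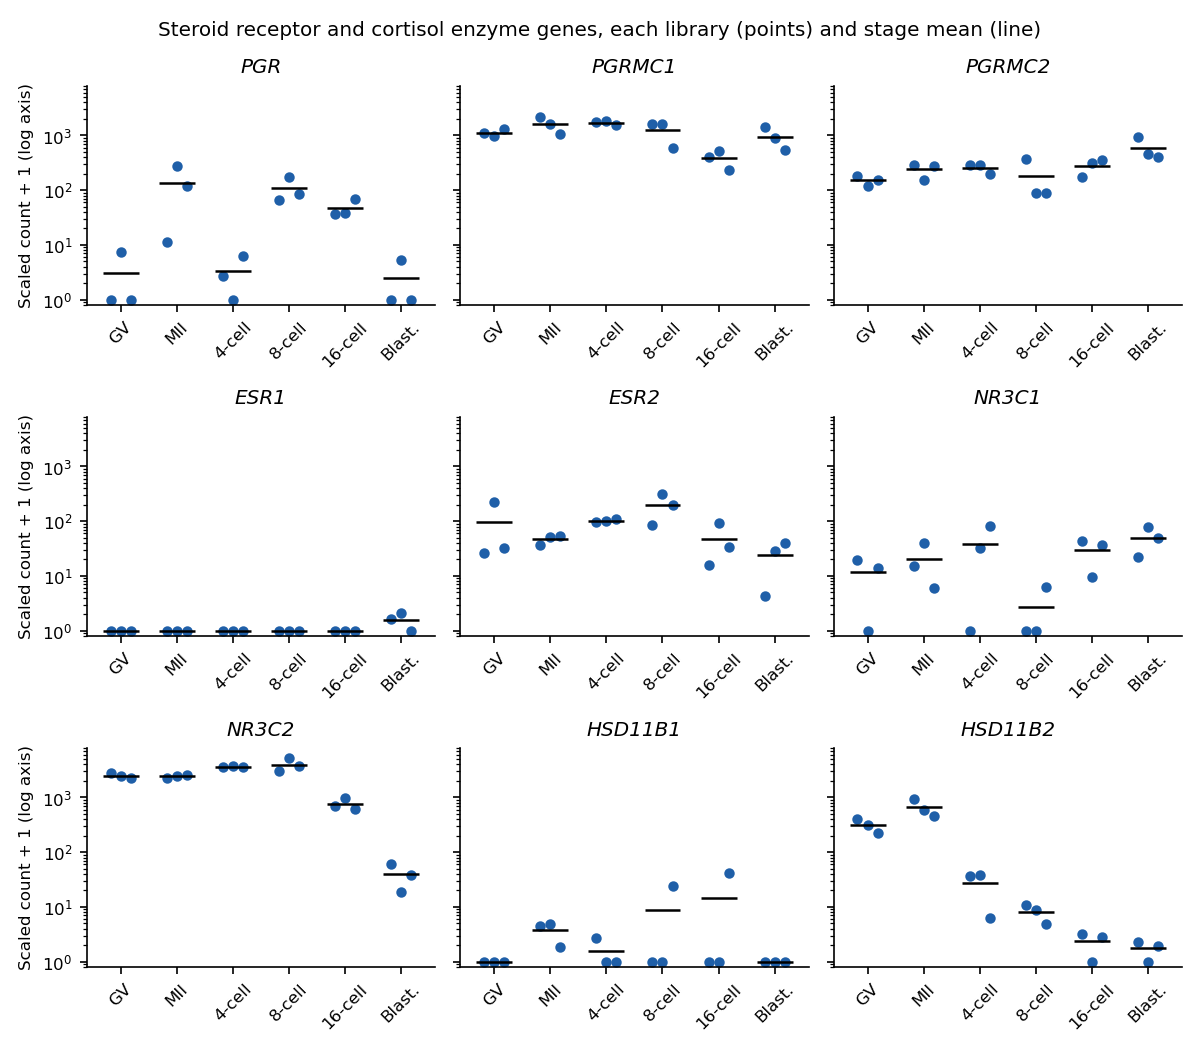
Scaled count of each of the 9 genes in every library, by stage from GV oocyte to blastocyst. Points are single libraries, 3 per stage, shown with the mean of the stage. PGR has its highest means in MII oocytes, with pools from 10.2 to 272, and in 8-cell and 16-cell embryos. NR3C2 runs on a plateau until 8 cells and reaches 17.5 to 60.0 in blastocysts, and HSD11B2 lies at 222 to 928 in oocytes and at 0 to 37.8 in embryos.

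PGR, the nuclear progesterone receptor, was detected in 2 separate windows. GV oocytes had 0, 6.4 and 0 scaled counts, from 0, 9 and 0 reads. MII oocytes had 10.2, 272 and 119 scaled counts, from 12, 413 and 139 reads. All 3 MII pools were above all 3 GV pools, but their own levels were far apart, and replicate 1 was close to the GV pool with reads. In 4-cell embryos PGR was back at 1.7, 0 and 5.2 scaled counts. In 8-cell embryos it reached 64.9, 172 and 85.3 scaled counts, from 91, 225 and 65 reads. As in MII oocytes, every pool had reads. The means were 134 ± 131 in MII oocytes and 2.12 ± 3.67 in GV oocytes, and 107 ± 56.8 at 8 cells and 2.30 ± 2.67 at 4 cells (SD, n = 3 each). The deposited values differed by 4.45 between MII and GV oocytes, by -4.09 between 4-cell embryos and MII oocytes, and by 4.48 between 8-cell and 4-cell embryos.

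The end of the second window could be tested, because the list was not chosen on those stages. PGR had 0, 4.4 and 0 scaled counts in blastocysts, against 36.0, 36.7 and 66.8 in 16-cell embryos. The groups did not overlap. The blastocyst mean of 1.46 ± 2.53, against 46.5 ± 17.6 in 16-cell embryos, rests on 4 reads in replicate 2, and the other blastocyst pools had 0 reads. PGR fell by 3.87 ± 1.02 (SE) on the deposited scale (limma, adjusted p = 0.00572), and this fall passed under each of the 18 alternatives that apply to it. The 16-cell range overlapped the 8-cell range at its upper end. In order of mean level the stages ran MII, 8-cell, 16-cell, 4-cell, GV and blastocyst, and the only neighbours in this order without overlap were 16-cell and 4-cell embryos.

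Cumulus cells express PGR after the gonadotrophin surge, so genes of cumulus and granulosa cells were read in the same pools. Of 18 such genes in the table, 15 had reads in MII oocytes and 15 in GV oocytes, led in GV oocytes by VCAN (848 ± 279 scaled counts) and HAS2 (729 ± 238), which oocytes may also hold. The granulosa factor FOXL2 was at 0 in both stages, FSHR and INHBB were at 0 in MII oocytes, and LHCGR and TNFAIP6 were at 0 in GV oocytes. The summed level of the list was 2788 to 4386 in MII oocytes and 2060 to 3544 in GV oocytes. In MII replicates 1, 2 and 3 the sum was 2788, 2921 and 4386, while PGR was 10.2, 272 and 119. The part of remaining cumulus cells in the MII value of PGR was not tested. In 8-cell embryos the list summed to 2389 to 4255, and in 4-cell embryos to 2281 to 2993.

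PGRMC1 and PGRMC2 are haem-binding membrane proteins that mediate rapid effects of progesterone; PGRMC1 is known in oocytes from its place on the meiotic spindle. PGRMC1 was present at every stage. Its levels were 1114, 965 and 1295 scaled counts in GV oocytes, 2198, 1600 and 1049 in MII oocytes and 1762, 1819 and 1548 in 4-cell embryos. In 8-cell embryos they were 1637, 1613 and 589. In 16-cell embryos PGRMC1 was at 406, 525 and 236 scaled counts, below all other libraries, of which blastocyst replicate 3 was the nearest. The fall was 1.64 ± 0.42 on the deposited scale (16-cell minus 8-cell embryos, limma adjusted p = 0.00524), and the 2 stages did not overlap. The mean was 3.29-fold lower in 16-cell embryos. With the libraries of these stages alone the adjusted p was 0.137.

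PGRMC1 stood at 1407, 903 and 533 scaled counts in blastocysts, all above the 16-cell range. This rise of 1.24 ± 0.42 passed narrowly (limma adjusted p = 0.0274). It was lost without 16-cell replicate 3 (0.92, adjusted p = 0.124), without blastocyst replicate 1 (0.90, adjusted p = 0.154) and without blastocyst replicate 2 (1.22, adjusted p = 0.0738). It was also lost when library medians were set equal (adjusted p = 0.167), with array weights (0.102), without a variance trend (0.0669) and with both stages alone (0.141). Blastocysts and GV oocytes overlapped (difference -0.34 ± 0.42, adjusted p = 0.530). In order of mean level the stages were 4-cell, MII, 8-cell, GV, blastocyst and 16-cell, and of these neighbours only blastocysts and 16-cell embryos did not overlap.

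PGRMC2 took another course, with its highest level at the end. Blastocysts had 917, 466 and 405 scaled counts and GV oocytes 180, 119 and 153, with no overlap and a mean that was 3.95-fold higher in blastocysts. PGRMC2 rose by 1.88 ± 0.52 (limma adjusted p = 0.00524), and this rise passed in every alternative run for it. Blastocysts were also all above 16-cell embryos, which had 171, 308 and 353, but that difference of 1.06 ± 0.52 did not pass (adjusted p = 0.129). The 8-cell pools were unequal, at 372, 86.3 and 86.6. Without 8-cell replicate 1 the differences between 8-cell and 4-cell embryos (-1.51, adjusted p = 0.0480) and between 16-cell and 8-cell embryos (1.57, adjusted p = 0.0205) both passed, and with it neither did (adjusted p = 0.352 and 0.209). The order of means was blastocyst, 16-cell, 4-cell, MII, 8-cell and GV, and only the highest pair did not overlap.

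The balance of these genes was also read within each library, since both share its depth. There were 22.7, 5.35 and 14.7 PGRMC2 reads per 100 PGRMC1 reads in 8-cell embryos. The values were 42.1, 58.6 and 150 at 16 cells, and blastocysts had 65.2, 51.6 and 75.9. All libraries of 16-cell embryos and blastocysts were above all libraries of the earlier stages, whose highest value was 25.9 in MII replicate 3. The test used the deposited value of PGRMC2 minus that of PGRMC1 in each library. This log2-like contrast differed by 2.52 between 16-cell and 8-cell embryos (exact permutation test, two-sided, p = 0.1, which is the smallest p that 3 against 3 allow). It differed by 2.22 between blastocysts and GV oocytes (exact permutation p = 0.1). Between blastocysts and 16-cell embryos it differed by -0.18 (exact permutation p = 0.9). Transcript lengths differ, so the ratio gives a change between stages and not the relative abundance of the 2 transcripts.

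**Figure D2:**
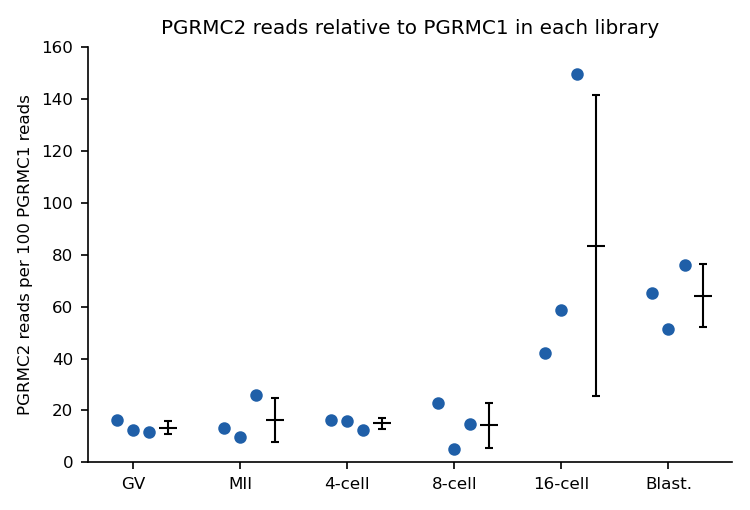
Reads of PGRMC2 per 100 reads of PGRMC1 in each of the 18 libraries, by stage, with the mean and SD of 3 libraries beside them. The ratio lies between 5.35 and 25.9 up to 8 cells and between 42.1 and 150 in 16-cell embryos and blastocysts.

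NR3C2, the mineralocorticoid receptor, which binds cortisol as well as aldosterone, showed the steepest tested course. It had 2776, 2461 and 2271 scaled counts in GV oocytes, 2304, 2435 and 2538 in MII oocytes and 3654, 3717 and 3557 in 4-cell embryos. In 8-cell embryos it had 2977, 5207 and 3748. The oocyte and cleavage stages thus formed a plateau, with 4-cell embryos above both oocyte stages in every pool but no difference past the threshold (4-cell minus MII 0.59 ± 0.33, limma adjusted p = 0.781). In 16-cell embryos the level was 706, 966 and 625, and in blastocysts it was 60.0, 17.5 and 37.8.

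Between 16-cell and 8-cell embryos NR3C2 fell by 2.36 ± 0.33 on the deposited scale (limma adjusted p = 3.43e-05), with a mean that was 5.20-fold lower in 16-cell embryos. Between blastocysts and 16-cell embryos it fell by 4.29 ± 0.33 (adjusted p = 6.94e-09), with a mean that was 19.9-fold lower in blastocysts. Over the whole course it was 65.1-fold lower in blastocysts than in GV oocytes and fell by 6.01 ± 0.33 (adjusted p = 1.49e-11). The groups of each pair did not overlap, and these falls passed under every alternative run. NR3C2 lies over the coding gene ARHGAP10 in the RefSeq annotation of assembly ARS-UCD2.0, and reads carry no strand. ARHGAP10 had 423 ± 244 scaled counts in 16-cell embryos and 732 ± 264 in 8-cell embryos (difference -0.87 ± 0.39, adjusted p = 0.0957). In blastocysts it had 257 ± 64.9 (difference from 16-cell embryos -0.59 ± 0.39, adjusted p = 0.273). The reads that the 2 genes share were not measured.

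Markers of the oocyte moved in the same direction at the same stages. Of 11 oocyte genes, 9 fell between 16-cell and 8-cell embryos (1 with the libraries of both stages alone), 9 fell between blastocysts and 16-cell embryos and 11 fell between blastocysts and GV oocytes. Among all 17138 genes tested, 2800, 2250 and 3490 fell in these comparisons. The summed level of the 11 oocyte genes was 6166 to 19469 in 16-cell embryos and 62276 to 116594 in 8-cell embryos. It was 106 to 324 in blastocysts and 93974 to 122797 in GV oocytes. ZP2, a protein of the zona pellucida, and BTG4, a factor of maternal RNA decay, led the list in GV oocytes with 31150 ± 9119 and 23962 ± 3840 scaled counts. In blastocysts BTG4 and BMP15 led it with 64.2 ± 64.7 and 44.3 ± 41.4. The share of NR3C2 RNA that was of oocyte origin was not tested.

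NR3C1, the glucocorticoid receptor, was low and uneven throughout. Its scaled counts were 19.0, 0 and 13.2 in GV oocytes, 14.5, 38.9 and 5.1 in MII oocytes, and 0, 31.6 and 81.0 in 4-cell embryos. In 8-cell embryos 2 pools had 0 reads and the third had 4. The levels were 42.7, 8.5 and 35.3 in 16-cell embryos. Blastocysts had 21.3, 76.7 and 47.4, all above the GV pools. Neighbours in the order of means (blastocyst, 4-cell, 16-cell, MII, GV, 8-cell) all overlapped, and the F test over stages did not pass (adjusted p = 0.0935).

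The closest call for NR3C1 was between 16-cell and 8-cell embryos, at 3.04 ± 1.19 (limma adjusted p = 0.0586), where the groups did not overlap. It passed with voom on the recovered reads (adjusted p = 0.0405), with quantile normalisation (0.0478), with genes of at least 10 reads in 3 libraries (0.0464), without 8-cell replicate 3 (0.0372) and without 16-cell replicate 2 (0.0461). Without 4-cell replicate 1, which had 0 reads, NR3C1 differed by -4.00 between 8-cell and 4-cell embryos (adjusted p = 0.0290), against -2.43 with it (adjusted p = 0.213). Its level thus rests on few reads, 0 to 70 per library.

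Of the oestrogen receptors, ESR1 was close to undetected and ESR2 had reads throughout. ESR1 had 1 read in each of 2 blastocyst pools and 0 reads in the other 16 libraries, and was left untested. The 3 reads that a count of 0 allows correspond to 1.69 to 8.47 scaled counts, depending on the library, and this limit covers counting error only. ESR2 had 25.6, 227 and 30.8 scaled counts in GV oocytes, 35.9, 50.1 and 52.4 in MII oocytes and 96.8, 98.2 and 111 in 4-cell embryos. It had 84.1, 308 and 196 in 8-cell embryos. The 16-cell pools had 14.6, 90.4 and 33.4, and the blastocyst pools 3.3, 27.4 and 38.7. All 4-cell pools were above all MII pools, while every pair of neighbours in the order of means (8-cell, 4-cell, GV, 16-cell, MII, blastocyst) overlapped.

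ESR2 differed over all stages together (F test, limma adjusted p = 0.0379), and no single comparison passed. The F test was lost in 11 of 29 alternatives, among them without any 1 of the 4-cell pools (adjusted p = 0.0568 to 0.0612) and without 8-cell replicate 2 (0.0988). The difference between 16-cell and 8-cell embryos was -2.13 ± 0.84 (adjusted p = 0.0595). Among the alternatives it passed with library medians set equal (0.0410), without 8-cell replicate 1 (0.0416) and without 16-cell replicate 2 (0.0281). ESR2 overlaps SYNE2, a coding gene of the nuclear envelope, in the same annotation. SYNE2 fell at the 8-cell step, with 1758 ± 119 scaled counts in 8-cell and 5049 ± 755 in 4-cell embryos (difference -1.51 ± 0.26, adjusted p = 0.000405). There ESR2 had 196 ± 112 at 8 cells and 102 ± 7.85 at 4 cells, a difference that did not pass (adjusted p = 0.660).

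HSD11B2, the enzyme that inactivates cortisol, had its highest levels in oocytes. It had 928, 589 and 453 scaled counts in MII oocytes and 401, 309 and 222 in GV oocytes, so that every MII pool was above every GV pool. The mean was 2.11-fold higher in MII oocytes. In 4-cell embryos it was at 36.0, 37.8 and 5.2, which is 24.9-fold lower on average than in MII oocytes and 11.8-fold lower than in GV oocytes. The groups did not overlap, the deposited values differed by -4.68 and -3.63, and in both of these breed and stage cannot be told apart.

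At 8 cells and later HSD11B2 was near the detection limit. It had 10.0, 7.6 and 3.9 scaled counts in 8-cell embryos, then 2, 0 and 1 reads in 16-cell embryos and 2, 0 and 1 reads in blastocysts. These later stages were not used to choose the list. The 16-cell pools were all below the 8-cell pools, but the difference of -1.41 ± 0.76 did not pass (limma adjusted p = 0.169), and neither did that between blastocysts and 16-cell embryos (-0.22 ± 0.76, adjusted p = 0.879). With at most 2 reads per pool, a further fall would not have been detectable.

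HSD11B1, which mainly regenerates cortisol, was close to absent. GV oocytes and blastocysts had 0 reads in all pools, which allows up to 3 reads per library. MII oocytes had 4, 6 and 1 reads, and 4-cell embryos 3, 0 and 0. The highest levels were in single pools, with 18 reads in 8-cell replicate 3 and 22 in 16-cell replicate 3, while the other pools of those stages had 0. HSD11B1 passed in no comparison (F test adjusted p = 0.445). H6PD, the enzyme of the endoplasmic reticulum that supplies HSD11B1 with NADPH, did change, with 94.2 ± 71.5 scaled counts in blastocysts and 6.58 ± 6.50 in 16-cell embryos, a rise lost without 16-cell replicate 2 or blastocyst replicate 2 (highest adjusted p over its alternatives 0.0889). The summed cumulus and granulosa markers were 2709 in 8-cell replicate 3 and 2251 in 16-cell replicate 3, within the 8-cell range (2389 to 4255) and at the top of the 16-cell range (1285 to 2251).

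**Figure D3:**
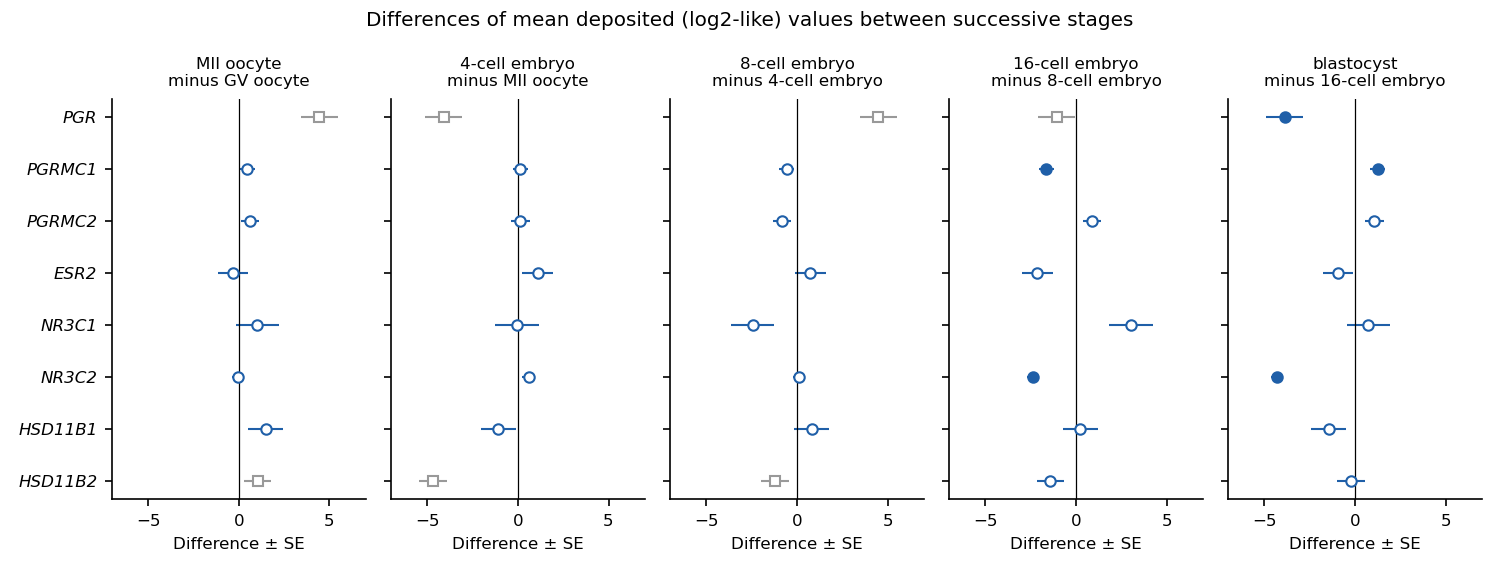
Difference of the deposited values with its SE for 8 of the genes in each comparison of a stage with the stage before it, later minus earlier. Filled blue points passed the limma test and open blue points did not. Open grey squares belong to stages on which the list was chosen and were not tested. NR3C2 lies at -2.36 between 16-cell and 8-cell embryos and at -4.29 between blastocysts and 16-cell embryos.

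The genes around these receptors were read from 6 lists, covering 89 tested genes once each. The lists were related receptors, receptor chaperones, coregulators, glucocorticoid response genes, progesterone and oestrogen response genes, and enzymes of steroid synthesis and metabolism. Between MII and GV oocytes 0 of the 89 passed the limma test, while 9 had an unadjusted p under 0.05 and 0 passed with voom. Between 4-cell embryos and MII oocytes 1 passed, the coregulator SRA1 (-3.61 ± 0.78, adjusted p = 0.0268), which was at 4.67 ± 4.13 scaled counts in 4-cell embryos and 75.0 ± 24.7 in MII oocytes. This call was lost in 6 of 18 alternatives, among them without any 1 of the MII pools or without 4-cell replicate 2 (highest adjusted p 0.172). SRA1 is listed among RNA and protein coactivators of steroid receptors. Between 4-cell embryos and GV oocytes SRA1 fell (-5.00 ± 0.78, adjusted p = 0.000456) and FDX1 rose, the ferredoxin that passes electrons to the mitochondrial steroid hydroxylases (1.49 ± 0.38, adjusted p = 0.0321). FDX1 had 3126 ± 286 scaled counts in 4-cell embryos and 1154 ± 428 in GV oocytes, and its call was lost in 7 of 18 alternatives, among them without any 1 of the 4-cell pools or without GV replicate 1 or 2 (highest adjusted p 0.163).

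Between 8-cell and 4-cell embryos 11 of the 89 rose and 7 fell. Between 16-cell and 8-cell embryos 11 rose and 19 fell, and between blastocysts and 16-cell embryos 27 rose and 13 fell. Between blastocysts and GV oocytes 33 rose and 21 fell. These make 20.2%, 33.7%, 44.9% and 60.7% of the genes, beside 12.8%, 31.1%, 31.3% and 45.9% of all genes tested.

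Among 11 related receptors tested, those with a fall included other progesterone and oestrogen receptors, and other genes of the list rose. CYB5D2 rose in 16-cell relative to 8-cell embryos (2.59 ± 0.94, limma adjusted p = 0.0408), a call lost in 8 of 18 alternatives (highest adjusted p 0.31). NENF rose in blastocysts relative to 16-cell embryos (3.78 ± 0.92, adjusted p = 0.00324), a call lost only with both stages alone (0.0742). The membrane progestin receptor PAQR7 fell in blastocysts, with 0.730 ± 1.26 scaled counts against 24.2 ± 12.5 in 16-cell embryos (-3.14 ± 0.61, adjusted p = 0.000451) and 282 ± 106 in GV oocytes (-6.53 ± 0.61, adjusted p = 2.91e-08). PAQR5 and GPER1, the membrane oestrogen receptor, also fell between 16-cell and 8-cell embryos, and GPER1 had 0 reads in all blastocyst pools. The call of PAQR5 was lost in 7 of 18 alternatives, among them without 8-cell replicate 2 or 3 or 16-cell replicate 1, and that of GPER1 in 6, among them without 8-cell replicate 1 or 16-cell replicate 1 or 2 (highest adjusted p 0.445 and 0.140). The oestrogen-related orphan receptors, which bind no oestrogen, went opposite ways. ESRRG fell to 1488 ± 662 in 16-cell embryos, against 5224 ± 1993 in 8-cell embryos (-1.83 ± 0.37, adjusted p = 0.000808), while ESRRB rose to 259 ± 16.2, against 22.4 ± 36.3. In all, 2 of the list rose and 4 fell between 16-cell and 8-cell embryos, with a median difference of -0.51. There 2537 of all 17138 genes tested rose and 2800 fell.

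Of 17 receptor chaperones, 7 rose and 2 fell in blastocysts relative to 16-cell embryos, where 3117 of all 17138 genes rose and 2250 fell. HSP90AB1, the constitutive HSP90 that holds receptors ready for hormone, had 13413 ± 2023 scaled counts in blastocysts and 1155 ± 80.8 in 16-cell embryos (3.52 ± 0.23, adjusted p = 4.30e-10). FKBP4, a co-chaperone that favours receptor activity, rose with it, at 806 ± 72.1 in blastocysts and 114 ± 116 in 16-cell embryos. FKBP5, the co-chaperone that restrains the glucocorticoid receptor and is itself a glucocorticoid target, had fallen one step earlier, with 557 ± 367 scaled counts in 16-cell embryos and 3566 ± 1278 in 8-cell embryos (-2.82 ± 0.37, adjusted p = 1.85e-05). The HSP90 partner p23, PTGES3, rose in 8-cell embryos to 2792 ± 871, against 383 ± 15.8 in 4-cell embryos (2.81 ± 0.38, adjusted p = 1.93e-05). It rose again in 16-cell embryos (1.33 ± 0.38, adjusted p = 0.0107) and was 1 of the 2 falls in blastocysts (-1.12 ± 0.38, adjusted p = 0.0274). These calls were lost in 5 and 7 of 18 alternatives (highest adjusted p 0.159 and 0.192). In blastocysts PTGES3 was at 3366 ± 1450 and in GV oocytes at 250 ± 65.2 (3.65 ± 0.38, adjusted p = 1.23e-07).

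Of 15 coregulators tested, 2 rose and 2 fell between 8-cell and 4-cell embryos, where 1480 of all 17138 genes rose and 708 fell. PNRC1, a small nuclear receptor coactivator, had 26700 ± 7170 scaled counts in 8-cell embryos and 34.6 ± 15.4 in 4-cell embryos (9.47 ± 0.43, adjusted p = 5.30e-12). It fell again in blastocysts, with 1464 ± 186 against 43907 ± 9261 in 16-cell embryos (-4.89 ± 0.43, adjusted p = 3.46e-08), and remained above GV oocytes (5.01 ± 0.43, adjusted p = 8.20e-09). The corepressor NCOR1 was among 5 coregulators that fell between 16-cell and 8-cell embryos, at 1446 ± 393 against 3908 ± 475 (-1.46 ± 0.23, adjusted p = 0.000125), while 1 rose. Over all genes tested, 2800 fell and 2537 rose there.

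Of 13 glucocorticoid response genes tested, 2 rose and 2 fell between 8-cell and 4-cell embryos, with a median difference of 0. Over all 17138 genes tested, 1480 rose and 708 fell there. SGK1, a kinase that corticosteroids induce in many tissues, had 2583 ± 939 scaled counts in 8-cell embryos and 5.44 ± 8.94 in 4-cell embryos (8.87 ± 0.65, adjusted p = 7.32e-09). It was at 1765 ± 175 in blastocysts and 1.26 ± 1.44 in GV oocytes (8.85 ± 0.65, adjusted p = 9.04e-10). DUSP1, a phosphatase of the stress kinases, rose at the same step, to 1184 ± 81.9 against 17.1 ± 18.2. In 16-cell embryos 4 of the list fell and 0 rose relative to 8-cell embryos, where 2800 of all genes fell and 2537 rose. In blastocysts 3 of the list rose and 2 fell relative to 16-cell embryos, where 3117 of all genes rose and 2250 fell. The clock gene PER1 was among the falls, with 29.7 ± 4.41 scaled counts in blastocysts and 357 ± 229 in 16-cell embryos (-3.23 ± 0.43, adjusted p = 8.87e-06). The list thus held both rises and falls.

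Of 12 progesterone and oestrogen response genes tested, 3 rose and 0 fell between 8-cell and 4-cell embryos, the step at which PGR was high again. HAND2, a progesterone-induced factor of the uterine stroma that the table lists by a locus number, had 142 ± 18.7 scaled counts in 8-cell embryos and 0 reads in all 4-cell pools (6.08 ± 0.70, adjusted p = 2.98e-06). The protease ADAMTS1, which PGR induces in granulosa cells, and MYC, an oestrogen target, also rose, and MYC was at 925 ± 551 against 1.43 ± 1.32. These 3 fell in blastocysts relative to 16-cell embryos, as did FOXO1, while XBP1 and IGFBP4 rose (by 4.32 and 4.58). Between these stages 3117 of all genes rose and 2250 fell. For HAND2 the fall was lost without blastocyst replicate 2 (highest adjusted p over its alternatives 0.0813). Relative to GV oocytes, 4 of the list rose in blastocysts and 3 fell. HAND2 and ADAMTS1 were among those rises (by 2.03 and 3.17), which were lost in 5 and 2 of 18 alternatives. FOXO1, a transcription factor that works with PGR in the uterine stroma, also fell in 16-cell embryos (1323 ± 399 against 5963 ± 1202 in 8-cell embryos, -2.20 ± 0.28, adjusted p = 1.47e-05). In blastocysts it was at 51.4 ± 13.0 (-4.56 ± 0.28 against 16-cell embryos, adjusted p = 2.49e-10, and -5.82 ± 0.28 against GV oocytes, adjusted p = 1.96e-12). At the 8-cell step 12.8% of all genes changed, and a link of these genes to PGR was not tested.

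Of 22 genes of steroid synthesis and metabolism tested, 10 rose and 1 fell in blastocysts relative to 16-cell embryos, with a median difference of 1.43. Over all 17138 genes tested, 3117 rose and 2250 fell between these stages. Aromatase, CYP19A1, which makes oestrogens, had 339 ± 118 scaled counts in blastocysts and 6.02 ± 9.47 in 16-cell embryos (5.83 ± 0.84, adjusted p = 2.01e-05). HSD3B1, which makes progesterone, and CYP17A1, which makes androgens, rose at the same step. HSD3B1 was at 414 ± 254 in blastocysts and 21.7 ± 37.5 in 16-cell embryos. HSD17B11 had risen at the 16-cell stage, to 326 ± 181 against 6.58 ± 9.21 in 8-cell embryos (5.53 ± 0.94, adjusted p = 0.000188), and SRD5A1, a steroid 5-alpha reductase, at the 8-cell stage, to 27.3 ± 23.3 against 0 reads in 4-cell embryos (3.56 ± 0.82, adjusted p = 0.00480). The fall was that of STAR, which brings cholesterol to the site of synthesis, with 73.9 ± 26.4 scaled counts in blastocysts and 173 ± 75.6 in 16-cell embryos. That step was lost in 6 of 18 alternatives, among them without 16-cell replicate 2 or 3 or blastocyst replicate 2 or 3 (highest adjusted p 0.376). Against GV oocytes, with 1665 ± 89.5, the fall was clear of the spread (-4.47 ± 0.36, adjusted p = 3.36e-09). CYP11B1 and CYP21A2, which complete cortisol synthesis, had 0 reads in every library.

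Trophectoderm, the outer layer of the blastocyst that forms the placenta, was marked by 8 of 12 genes that rose in blastocysts relative to 16-cell embryos, led by the keratins KRT8 (19587 ± 8018 scaled counts) and KRT18 (13818 ± 6365). At this step 3117 of all 17138 genes tested rose and 2250 fell. The trophectoderm list summed to 31207 to 64050 in blastocysts and 4794 to 8141 in 16-cell embryos. The cumulus and granulosa list also summed higher in blastocysts (6837 to 17106, against 1285 to 2251 in 16-cell embryos), but PTGS2 made up 10672 ± 5060 of it, and 7 of 16 tested genes of the list fell while 3 rose. INHA, INHBB and FST of this list were at 0 in blastocysts. Sperm markers were also read, because embryos may carry spermatozoa in the zona. Of 8 genes measured, 5 had reads in blastocysts, led by TNP1 (400.5 ± 489) and SPATA18 (58.6 ± 34.2), and PRM2, ODF1 and AKAP4 were at 0. TNP1 and SPATA18 were at 0 in 4-cell embryos. Both rose in blastocysts relative to 16-cell embryos (by 6.23 and 4.01, limma adjusted p = 7.28e-05 and 0.00143). The sperm list summed to no more than 13.1 in any 4-cell pool, 54.2 in any 8-cell pool and 5.57 in any 16-cell pool. Its lowest blastocyst sum was 104. The part of trophectoderm, cumulus or sperm cells in the rises of PGRMC2 and of the steroid enzymes was not tested.

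**Figure D4:**
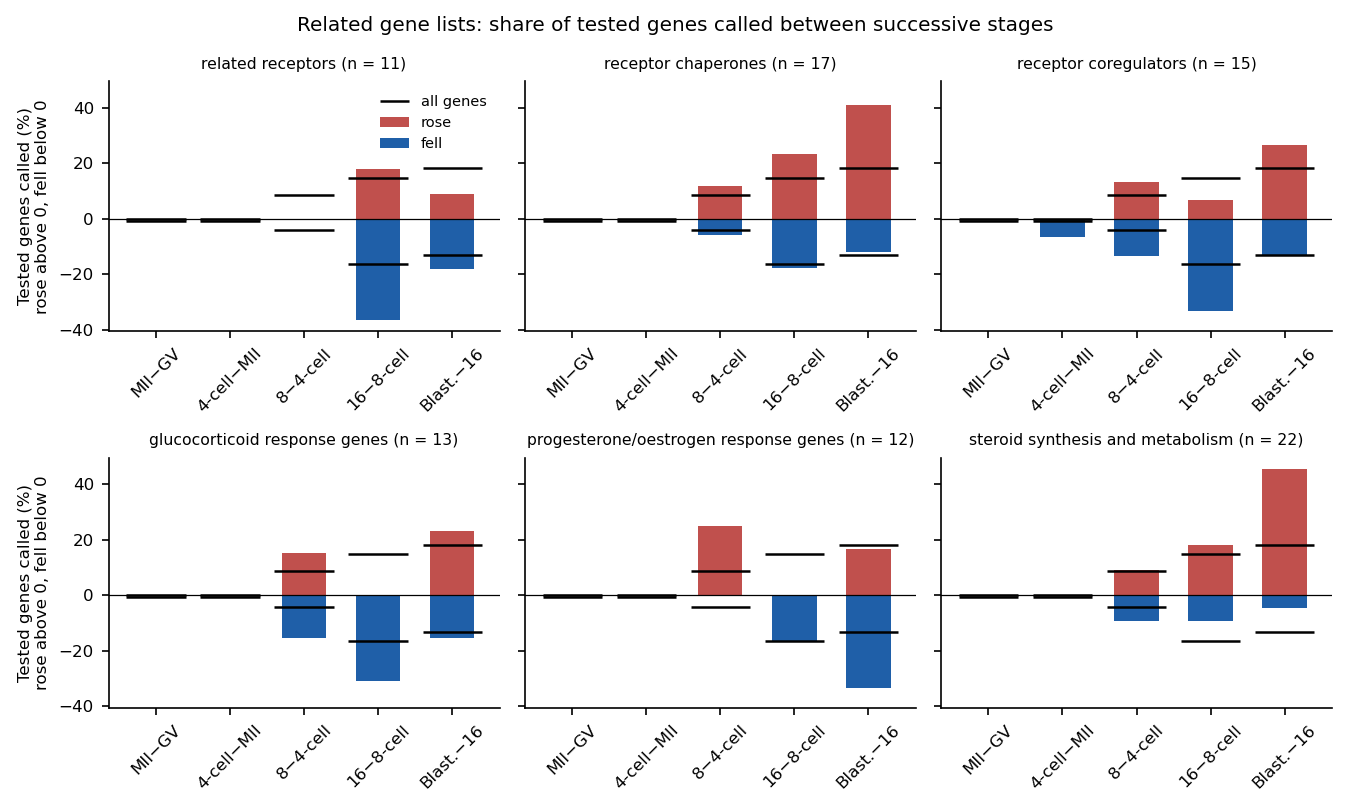
Percentage of tested genes that rose (red, above 0) or fell (blue, below 0) in each of 6 lists of steroid-related genes, for each stage minus the stage before it. Black lines mark the same percentages over all 17138 genes tested, and n is the number of genes tested in the list. In steroid synthesis and metabolism 10 of 22 genes rose and 1 fell between blastocysts and 16-cell embryos, and between MII and GV oocytes the lists have 0 calls.

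Genes with a pattern like that of each receptor were named by the Pearson correlation of the deposited values over the 18 libraries, among 13661 tested genes with a symbol. The libraries share stage and depth, so r is a description only. The genes nearest to PGR were DUSP18 (r = 0.78), MLL5 (0.77), ERI2 (0.75), NUPL2 (0.74) and DNAL1 (0.74), and 0 genes exceeded 0.9. Over the 6 stage means r was 0.89 for DUSP18. PGR had 0 to 9 reads per library in GV oocytes, 4-cell embryos and blastocysts, and its MII pools lay far apart. DUSP18, a phosphatase, had 71.4 scaled counts in MII oocytes and 33.8 in GV oocytes, and 288 in 8-cell and 29.7 in 4-cell embryos on average. Both windows were thus seen in its means, but without the near absence between them.

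NR3C2 had a common pattern, with 411 genes over 0.9, led by FOXO1 (r = 0.99), LRRC8B (0.99) and TECTB (0.99). TECTB, which encodes a tectorin, was at 1976 scaled counts in 8-cell embryos and had 0 reads in blastocysts. HSD11B2 had 10 genes over 0.9. The LIM homeobox factor LHX2 was nearest (r = 0.95), followed by DBR1 (0.93), GRIN3B (0.92), NR0B1 (0.91) and MAP2K6 (0.91). LHX2 was at 611 scaled counts in 4-cell embryos and 2714 in MII oocytes. NR0B1, the nuclear receptor DAX1 that represses steroid synthesis genes, was at 25.4 in 4-cell and 72.6 in MII libraries on average, but 0.951 in 8-cell embryos. DBR1, the enzyme that opens intron lariats, stayed at 308 in blastocysts.

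The other members were followed by other genes. MBOAT1 (r = 0.92), TMEM14C (0.91) and RALA (0.91) were nearest to PGRMC1, and 6 genes exceeded 0.9. XDH (0.89), VMA21 (0.85) and NME6 (0.84) were nearest to PGRMC2. SENP3 (0.91), PDP1 (0.87) and TSC1 (0.85) were nearest to ESR2, and LSM12 (0.73), PITPNC1 (0.72) and NCOA5 (0.71) to NR3C1. For PGRMC2 and NR3C1, 0 genes exceeded 0.9, and for ESR2 1 did.

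**Figure D5:**
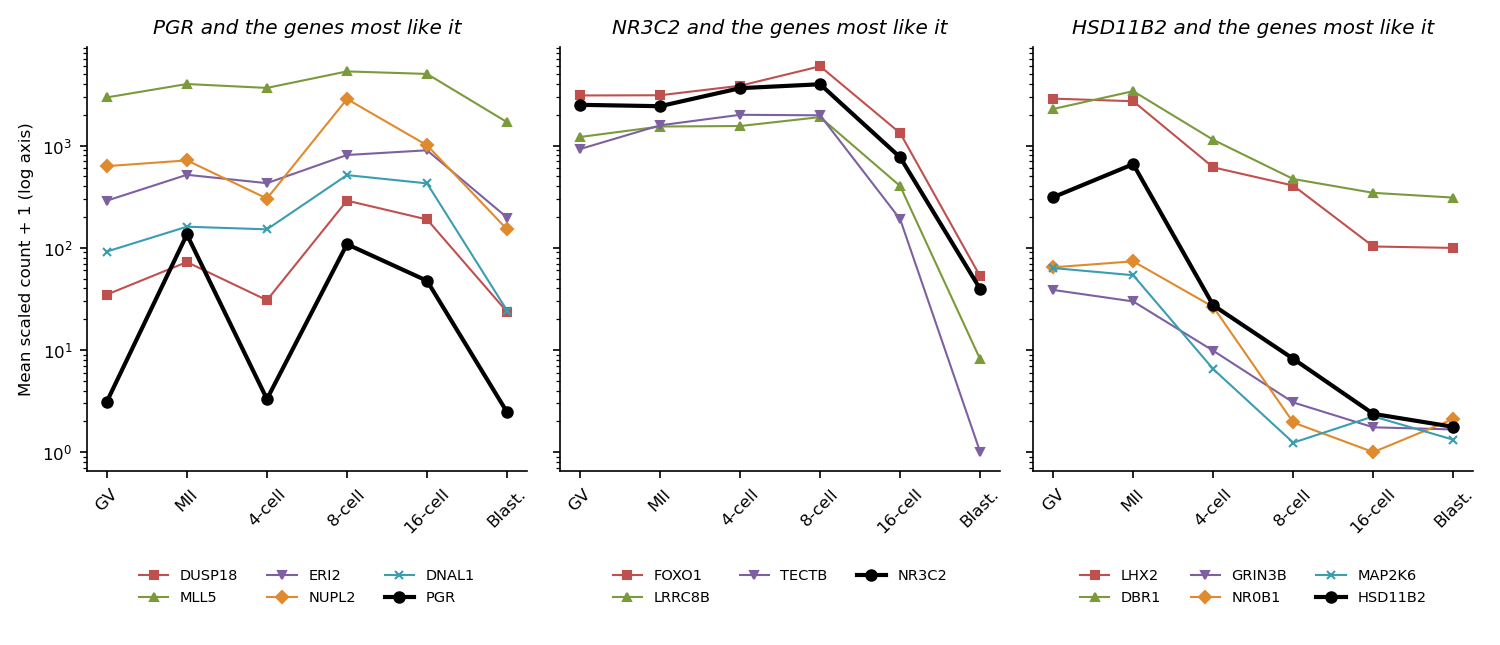
Mean scaled count plus 1 on a log axis at each stage for PGR, NR3C2 and HSD11B2 (black) and for the genes whose deposited values correlate best with each over 18 libraries (colours). Heights differ between genes also through transcript length, so only the courses compare. The genes near NR3C2 and HSD11B2 share the decline, whereas those near PGR do not drop as far in 4-cell embryos.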

How the data were processed

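Per the labels' protocols, cDNA from 1 lysate of each pool was made with mixed random and poly(A) priming, then amplified isothermally from a single primer and sequenced as single reads on a GAIIx, in a way that does not mark strand. The authors deposited variance-stabilised values on a log2-like scale. The submitters' processing notes name CASAVA 1.6, TopHat2 2.0.3, HTSeq, DESeq and the build UMD3.1; what each did, the annotation and the handling of multiply matching reads are, here, not given in the sources used. The transformation was inverted in closed form, and all 390024 values gave whole reads within a tolerance of 1e-06. The recovered factors equalled median-of-ratios factors. Scaled counts are these reads divided by the factors, and floors are 3 reads per library.

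Stage differences were fitted with limma 3.58.1 (R 4.3.3) from the deposited values in all 18 libraries, moderated by empirical Bayes with a variance trend, for the 17138 genes that had 1 or more reads in 3 or more libraries. The F test covers all stages. Python 3.11.15 with pandas 2.3.3, numpy 2.4.6, scipy 1.17.1 and matplotlib 3.10.9 made the tables and plots. The labels do not say that replicates came from separate cultures, so p-values measure the spread between pools. Replicate numbers of 16-cell embryos and blastocysts correlated in their deviations (0.108 to 0.134 over all 3 pairs), and those of no other pair of stages did so throughout; the numbers come from the sample titles.

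The members and the gene lists were chosen with earlier results of these data known. In each list the called gene with the smallest p in each comparison is named, with its values; any other list gene was picked once its values were known. In the marker lists the 2 genes with the highest level in GV oocytes, 4-cell embryos and blastocysts were taken; those printed stand beside the results they touch. Names of 154 of 157 list genes matched, 8 by another name in RefSeq of assembly ARS-UCD2.0 (used for names and neighbouring genes alone). No sequence is shown. Alternatives covered other scalings, voom, pseudocounts, filters, array weights, a replicate block and each library left out.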

Additional observations from a re-analysis of the deposited data

How the results depend on the processing

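Of 1001 refits of single differences of the genes, 8 lost the threshold, 13 gained it and 4 untested values moved by more than the spread between replicates. Another 31 changed sign, 25 of tested and 6 of untested differences (PGR), and 0 of these passed the threshold. Between MII and GV oocytes, leaving out single libraries gave -0.050 to 1.66 for NR3C1, -0.11 to 0.036 for NR3C2 and -0.85 to 0.62 for ESR2, and equal medians gave 0.27 for NR3C2. Between 4-cell embryos and MII oocytes it gave -0.14 to 0.40 for PGRMC1, -0.14 to 0.33 for PGRMC2 and -1.14 to 1.52 for NR3C1, for which a pseudocount of 5 gave 0.29 and equal medians 0.082. Between 8-cell and 4-cell embryos it gave -0.12 to 0.28 for NR3C2, with -0.0030 under voom, -0.15 with equal medians and -0.10 with array weights, and -0.41 to 1.43 for HSD11B1. HSD11B1 had -1.23 to 1.47 between 16-cell and 8-cell embryos. HSD11B2 had -0.67 to 0.13 between blastocysts and 16-cell embryos, and 0.038 without 8-cell replicate 2 and 16-cell replicate 1. NR3C1 had -0.11 to 2.54 between 4-cell embryos and GV oocytes, and PGRMC1 had -0.68 to 0.014 between blastocysts and GV oocytes. Between 16-cell and 8-cell embryos 2 genes passed; 1 did with the libraries of both stages alone, where fewer libraries estimate the spread, and 2 to 4 did when single libraries were left out. The count was 0 to 1 between 8-cell and 4-cell embryos and 2 to 4 over all stages when single libraries were left out; it was 2 without blastocyst replicate 1 or 2. The cause was not tested. Same-numbered pools deviated together for 16-cell embryos and blastocysts alone. With the replicate block ESR2 passed between 16-cell and 8-cell embryos (-2.13, adjusted p = 0.0242), and the block changed no other call of these genes. Setting library medians equal moved the median of all genes by -0.24 between 8-cell and 4-cell embryos, with 1205 rises among 2221 calls (1480 of 2188 as deposited), by -0.36 between blastocysts and 16-cell embryos, with 2408 of 5282 (3117 of 5367), by 0.32 between MII and GV oocytes, with 22 of 80 (17 of 122), by 0.12 between 4-cell embryos and MII oocytes, by -0.12 between 16-cell and 8-cell embryos, by -0.28 between blastocysts and GV oocytes, and by 0.44 between 4-cell embryos and GV oocytes, with 120 of 366 (68 of 531). Voom gave 1447 rises among 2518 calls between 8-cell and 4-cell embryos. An alternative chosen after seeing the data left out 8-cell replicate 2 and 16-cell replicate 1. Of 1260 refits of the list counts 134 moved by over 1.5 times. Of the 89 list genes, 5, 23 and 10 passed with both stages alone between 16-cell and 8-cell embryos, blastocysts and 16-cell embryos, and 8-cell and 4-cell embryos, against 30, 40 and 18, and array weights gave 5, 6 and 12 calls against 0, 1 and 2 between MII and GV oocytes, 4-cell embryos and MII oocytes, and 4-cell embryos and GV oocytes. ESRRG, ESRRB, FKBP5, HSD17B11, HSD3B1, CYP17A1, ADAMTS1 and SRA1 (4-cell embryos against GV oocytes) lost a call with both stages alone. Depth limits PGR, NR3C1, ESR1 and both HSD11B genes most, since their low stages hold 0 to a few reads.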
